A study of Rattus norvegicus with 8 samples.

Results

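Genes of the epidermal growth factor (EGF) family were followed in the rat Achilles tendon through the ligands Hbegf, Areg, Ereg, Tgfa and Btc, the receptors Egfr, Erbb2 and Erbb3, and the receptor inhibitor Errfi1. Members were taken by gene symbol, from a list drawn up with earlier results of these data known. Of the 9 genes, 7 had a row among the 15590 genes listed, and all 7 were among the 13863 genes tested. Areg and Ereg were not analysed here. The tendons came from male wild-type Sprague-Dawley rats, 8 to 10 weeks old according to the methods of the study. In 4 libraries the rats had run for 1 h uphill on a treadmill, at a 10° incline and 20 m/min, and were killed at once (0 h post-running, 0 h p.r.). The other 4 libraries were controls without running (NC), kept at normal cage activity. The runners were also exposed to airflow, and those that stepped off the belt to a mild electric stimulus. The NC rats were killed with a group of runners rested for 12 h. Running, these stimuli and the time of killing therefore cannot be told apart.

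EGF-family ligands are made as membrane-anchored precursors and are shed by proteases of the ADAM family. They bind EGFR or other ERBB receptors, which then pair, phosphorylate each other and feed the RAS and ERK kinase cascade. ERBB2 binds no ligand of its own and acts as a partner, and ERBB3 has little kinase activity and signals through its partners. ERRFI1, also called MIG6, is an inducible protein that binds the EGFR kinase domain and blocks it. HB-EGF, the product of Hbegf, is known for its role in wound repair, and tendon fibroblasts are known to respond to EGFR ligands.

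Running was accompanied by higher RNA of a ligand and of the receptor inhibitor, while none of the receptors passed the test. Hbegf was 5.71-fold higher in 0 h p.r. than in NC and Errfi1 was 2.49-fold higher. The 4 libraries of each group did not overlap for either gene. The libraries of 0 h p.r. are called runners 1 to 4 below, after their replicate numbers. The other 2 ligands, Tgfa and Btc, and the 3 receptors did not pass the test. A gene was called at an adjusted p under 0.05 (limma, Benjamini-Hochberg) with a fold change of at least 2. Of the 7 genes, 2 were called, against 2.70% of all tested genes in either direction, and both were higher, against 1.80% of all tested genes called higher. The count fell to 1, Hbegf alone, when any of 5 single libraries was omitted, as given with Errfi1. All 4 values of 0 h p.r. lay above all 4 of NC for 2 of 7 genes, against 8.15% of all tested genes.

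To show the sequences in front of the called genes, RefSeq promoters of the rat build GRCr8 were searched. The table held an entry for 6 of the 7 genes, the exception being Erbb3. The window was the 250 bases before the annotated start, read on both strands, and positions count back from that start. Capitals mark 3 motifs. TGACG is the core of the cAMP-response element and is written as its complement where it lies on the opposite strand. The others are the GC box, GGGCGG, and the TATA box, searched as TATAAA. The whole Errfi1 window is given because all 3 of these motifs lie in it, at chr5:166606591-166606840 on the plus strand. Of Hbegf, 25 bases around the only match are given, at chr18:28390399-28390423 on the minus strand.
Errfi1: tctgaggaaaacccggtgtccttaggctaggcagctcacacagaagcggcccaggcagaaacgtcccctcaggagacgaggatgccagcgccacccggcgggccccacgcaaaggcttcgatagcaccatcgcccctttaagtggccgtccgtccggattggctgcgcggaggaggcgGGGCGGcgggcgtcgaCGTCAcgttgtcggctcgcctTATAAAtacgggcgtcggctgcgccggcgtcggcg
Hbegf: ctgattggccTGACGgaccttcaag

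In Errfi1, TATAAA began at -35, the opposite-strand TGACG at -56 and GGGCGG at -72. In Hbegf, TGACG began at -193, and neither TATAAA nor GGGCGG was in the window. TGACG was found in both called genes and in none of the windows of Tgfa, Btc, Egfr and Erbb2, against 19.0% of all 27457 promoters. TATAAA was found in 13.1% of all promoters and GGGCGG in 32.4%, the latter also in Tgfa, Btc, Egfr and Erbb2. The full element TGACGTCA, which contains TGACG, was in none of the 6 windows and in 1.70% of all promoters. Neither the AP-1 motif TGANTCA (6.36% of all promoters) nor the CArG box of serum response factor (1.50%) was in any of the 6. These matches describe the letters in the windows and no binding was measured.

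Of Hbegf, Tgfa and Btc, Hbegf was the most abundant in every library. Its level in FPKM (fragments per kilobase of transcript, scaled between libraries) was 8.79, 5.69, 13.6 and 25.9 in NC replicates 1 to 4. Runners 1 to 4 had 53.9, 77.5, 62.3 and 84.5. The lowest runner lay above the highest control, NC replicate 4, which itself stood 4.55-fold above NC replicate 2. The mean was 13.5 ± 8.89 (SD, n = 4) in NC and 69.5 ± 14.0 (SD, n = 4) in 0 h p.r. The log2 fold change was 2.51 with a standard error of 0.39, a 95% interval of 1.63 to 3.39 and an adjusted p of 0.00928 (limma). By fold change Hbegf ranked 25 of the 250 genes called higher. Its call held in all 19 alternative fits, with adjusted p from 0.00319 to 0.0359.

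**Figure D1:**
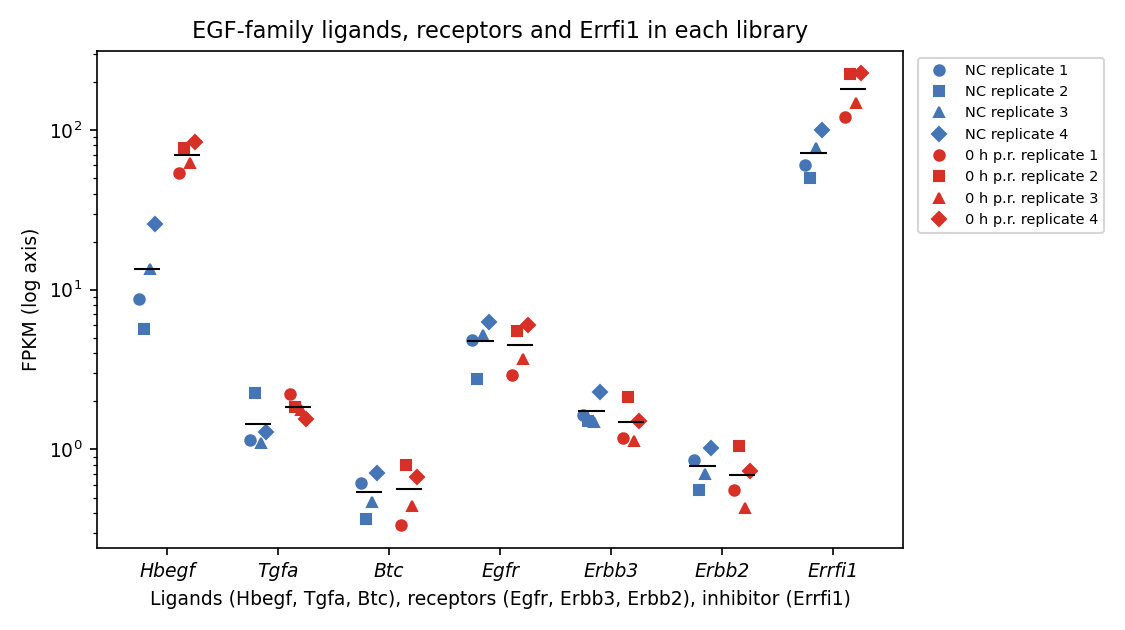
FPKM of each gene (log axis) in the 8 libraries, with NC in blue, 0 h p.r. in red, a marker shape for each replicate number and a black bar at the group mean. For Hbegf and Errfi1 every red point lies above every blue point, and for the other 5 genes the groups overlap.

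Tgfa, which encodes transforming growth factor alpha, was a low-level ligand. Its FPKM was 1.15, 2.24, 1.10 and 1.28 in NC replicates 1 to 4. Runners 1 to 4 had 2.22, 1.84, 1.77 and 1.55. NC replicate 2 was the highest of the 8 libraries, and without it the other 3 NC values lay below every runner. In limma its log2 fold change was 0.30 ± 0.20 (SE), with an adjusted p of 0.443. The interval ran from 0.89- to 1.69-fold. NC replicate 2 stood apart in other ways, with the mitochondrial protein-coding genes at 31.1% of its FPKM against 16.3% to 21.9% elsewhere and the lowest depth. Without it the log2 fold change of Tgfa was 0.47, with an adjusted p of 0.0995 (limma), which does not pass. The part of that library's makeup in the Tgfa value was not tested.

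Btc, which encodes betacellulin, had the lowest mean of the 7 genes in both groups, although Erbb2 was below it in runner 3. Its level was 0.62, 0.37, 0.47 and 0.71 FPKM in NC replicates 1 to 4. Its values in the runners were 0.34, 0.80, 0.44 and 0.67 FPKM. The groups overlapped fully, with a log2 fold change of 0.02 ± 0.20 (SE) and an adjusted p of 0.968 (limma). These values rest on 9 to 36 reads a library. The 9 reads of NC replicate 2 have an exact Poisson 95% interval of 4.12 to 17.1. The interval of the fold change over libraries ran from 0.74 to 1.40.

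Egfr, which encodes the receptor shared by Hbegf, Tgfa and Btc, was the most abundant of the 3 receptor genes in every library. Its FPKM was 4.84, 2.77, 5.23 and 6.30 in NC replicates 1 to 4. The runners had 2.93, 5.49, 3.68 and 5.99. The ranges of the groups nearly coincided. Its log2 fold change was -0.07 ± 0.28 (SE), with an adjusted p of 0.920 (limma) and an interval of 0.62- to 1.46-fold. Its sign turned positive without NC replicate 4 (0.07), 0 h p.r. replicate 1 (0.10) or 0 h p.r. replicate 3 (0.00048), so no direction can be given.

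Erbb3 had an FPKM of 1.65, 1.51, 1.49 and 2.28 in NC replicates 1 to 4. In the runners it had 1.18, 2.14, 1.13 and 1.50. Two-sided limma gave a log2 fold change of -0.18 ± 0.20 (SE), with an adjusted p of 0.660. Erbb2, the partner receptor, had 0.85, 0.55, 0.70 and 1.02 FPKM in NC. Among the runners it had 0.56, 1.05, 0.43 and 0.74 FPKM. Its log2 fold change was -0.12 ± 0.21 (SE), with an adjusted p of 0.800. The groups overlapped for both genes. The intervals allowed a change of 0.64- to 1.21-fold for Erbb3 and 0.66- to 1.28-fold for Erbb2.

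**Figure D2:**
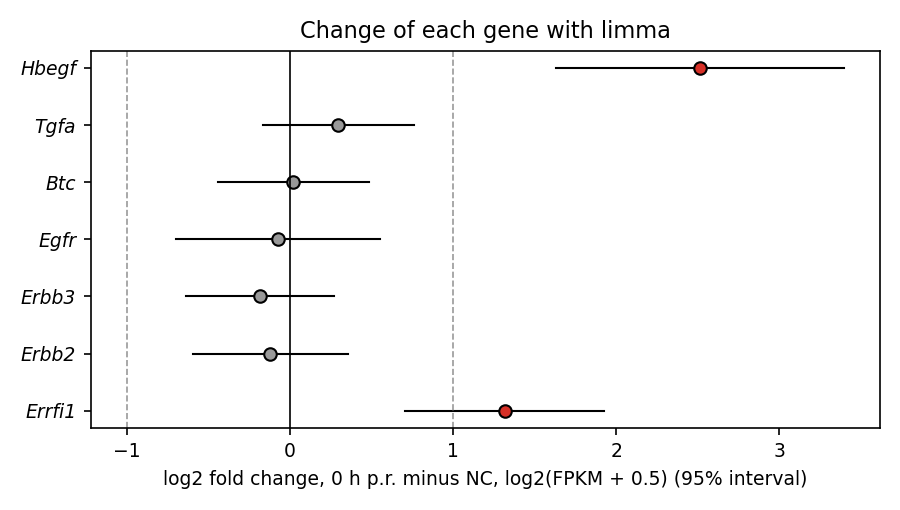
The log2 fold change of each gene, 0 h p.r. minus NC on the log2(FPKM + 0.5) scale, with its 95% interval from limma, called genes in red and dashed lines at a fold of 2 in each direction. The intervals of Hbegf (1.63 to 3.39) and Errfi1 (0.71 to 1.92) lie above 0, and the intervals of the other 5 include 0 and stay below 1.

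Errfi1 was the most abundant of the 7 genes in every library. It had 60.0, 50.3, 77.1 and 99.4 FPKM in NC replicates 1 to 4. Runners 1 to 4 had 120.6, 225.2, 147.2 and 226.3 FPKM. No values of the groups overlapped, but the lowest runner, runner 1, stood close to the highest control, NC replicate 4. The mean was 71.7 ± 21.6 (SD, n = 4) in NC and 179.8 ± 54.1 (SD, n = 4) in 0 h p.r. The log2 fold change was 1.32 ± 0.27 (SE), with a 95% interval of 0.71 to 1.92 and an adjusted p of 0.0278 (limma). It ranked 152 of the 250 genes called higher.

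The call of Errfi1 depended on single libraries, although its direction held in all 19 alternative fits. The adjusted p (limma) was 0.0883 without NC replicate 1, 0.0550 without NC replicate 2 and 0.0600 without NC replicate 3. It was 0.0947 without 0 h p.r. replicate 2 and 0.0604 without 0 h p.r. replicate 3, and over the 8 such fits the log2 fold change stayed between 1.16 and 1.49. Scaling the libraries to equal FPKM totals gave an adjusted p of 0.141, and quantile normalization gave 0.0677. With the replicate number as a block it was 0.0527. Without both NC replicate 2 and 0 h p.r. replicate 1, a choice made after the data were seen, it was 0.0466 and the 2 calls held.

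The order of the levels was read next, on the FPKM scale, which is per length. In NC the order of the means was Errfi1, Hbegf, Egfr, Erbb3, Tgfa, Erbb2 and Btc. Ranges of neighbours overlapped between Hbegf and Egfr, between Erbb3 and Tgfa and between Erbb2 and Btc, although Hbegf was above Egfr in each of the 4 libraries. After running the range of Hbegf, from 53.9 FPKM, was far above that of Egfr, up to 5.99 FPKM. There Tgfa (1.84 FPKM) and Erbb3 (1.49 FPKM) stood in the opposite order of means, with overlapping ranges.

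Ligand RNA was next set against receptor RNA in each library. The summed FPKM of Hbegf, Tgfa and Btc was 10.6, 8.30, 15.1 and 27.9 in NC replicates 1 to 4, and 56.5, 80.1, 64.5 and 86.8 in 0 h p.r. replicates 1 to 4. Summed receptor FPKM was 7.35, 4.84, 7.42 and 9.60 in NC, and 4.66, 8.67, 5.24 and 8.23 in 0 h p.r. Their quotient was 2.03 ± 0.64 (SD, n = 4) in NC and 11.1 ± 1.44 (SD, n = 4) in 0 h p.r., without overlap between the groups (1.44 to 2.91 against 9.24 to 12.3). Hbegf made up 68.6% to 92.9% of the ligand sum in NC and 95.5% to 97.4% in 0 h p.r., so the quotient follows Hbegf. Egfr made up 57.2% to 72.8% of the receptor sum over all 8 libraries.

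Within the groups the genes other than Tgfa deviated in the same direction in most libraries. Runners 1 and 3 were the lowest and runners 2 and 4 the highest for Hbegf, Btc, Egfr, Erbb2, Erbb3 and Errfi1, whereas Tgfa was highest in runner 1 and lowest in runner 4. In NC, replicate 4 was the highest for the same 6 genes. Below it Hbegf, Egfr and Errfi1 had the same order (replicates 2, 1 and 3 from lowest to highest), from which Btc, Erbb2 and Erbb3 differed. Over the 8 deviations from the group means, on the log2(FPKM + 0.5) scale, Pearson's r was 0.95 between Errfi1 and Egfr, 0.87 between Errfi1 and Hbegf and 0.84 between Hbegf and Egfr. Among the 6 genes the lowest values were those of Hbegf with Erbb3 (0.62), Erbb2 (0.63) and Btc (0.66). Between Tgfa and Egfr it was -0.82. These are descriptions over 8 libraries, which share their depth and their tissue makeup between the genes.

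**Figure D3:**
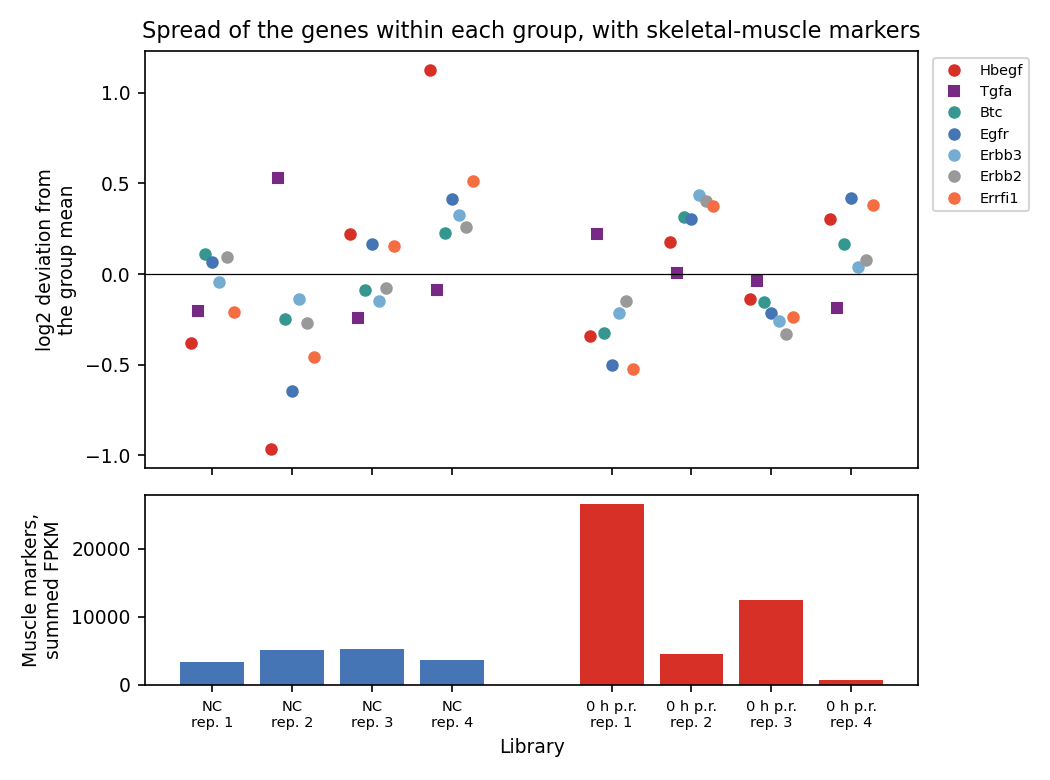
Top, the deviation of each gene from its group mean in each library on the log2(FPKM + 0.5) scale, with Tgfa as purple squares. Bottom, the summed FPKM of 6 skeletal-muscle marker genes in the same libraries. Among the runners the 6 genes other than Tgfa lie below 0 in replicates 1 and 3, where the muscle sum is 26550 and 12424, and above 0 in replicates 2 and 4, where it is 4560 and 794. In NC the muscle sum (3322, 5191, 5320 and 3659 in replicates 1 to 4) is not ordered against the genes in this way.

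Taken relative to Egfr, the levels of Errfi1 and Hbegf varied less between runners than the levels themselves. Errfi1 divided by Egfr was 12.4, 18.2, 14.8 and 15.8 in NC replicates 1 to 4. Among runners 1 to 4 it was 41.2, 41.0, 40.0 and 37.8, a coefficient of variation of 3.92% against 30.1% for Errfi1 alone. The quotient of Hbegf and Egfr was 1.81, 2.06, 2.60 and 4.11 in NC. The runners had 18.4, 14.1, 16.9 and 14.1, a coefficient of variation of 13.4% against 20.1% for Hbegf alone. Neither quotient overlapped between the groups, and their group means of the log2 quotient differed by 1.40 and 2.65. The quotient of Errfi1 and Tgfa, by contrast, did overlap, at 22.4 to 77.5 in NC and 54.3 to 146.1 in 0 h p.r. That of Hbegf and Tgfa did not, at 2.54 to 20.2 in NC and 24.3 to 54.6 in 0 h p.r. Nor did the quotients of Errfi1 or Hbegf to Erbb2, Erbb3 or Btc. Relative to Btc the coefficient of variation among the runners was 10.3% for Errfi1 and 20.7% for Hbegf. Hbegf relative to Errfi1 was 0.11 to 0.26 in NC and 0.34 to 0.45 in 0 h p.r. These quotients were chosen after the values were seen and were not tested.

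**Figure D4:**
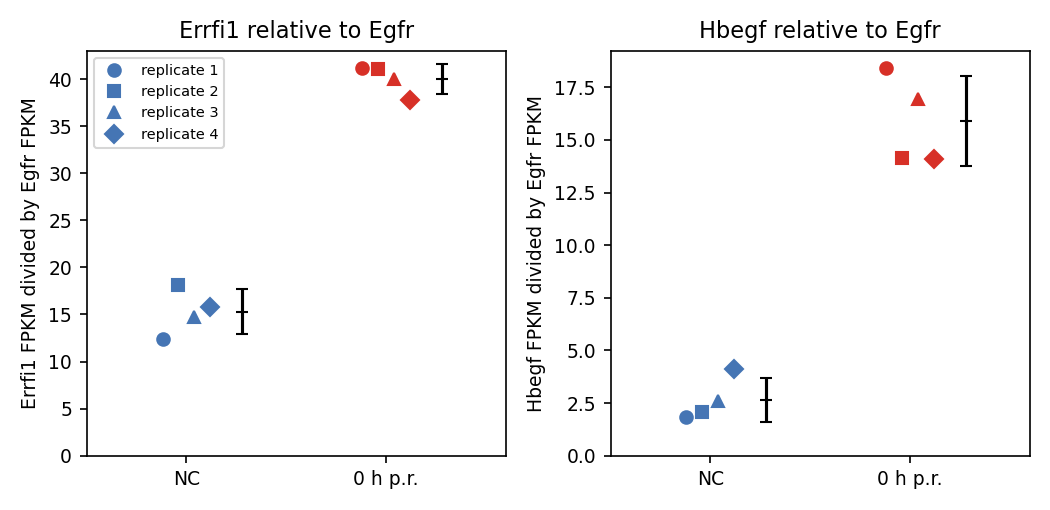
FPKM of Errfi1 (left) and of Hbegf (right) divided by the FPKM of Egfr in the same library, with a marker shape for each replicate number and the mean ± SD of 4 libraries beside the points. The runners lie at 37.8 to 41.2 for Errfi1 and at 14.1 to 18.4 for Hbegf, above the controls in both panels.

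The makeup of the tendon pieces was read from marker genes, since in bulk RNA fewer cells of a type and less RNA per cell cannot be told apart. All 8 tenocyte markers were present and none was called, with a summed FPKM of 3777 to 7451 in NC and 4154 to 7450 in 0 h p.r. Of the 6 skeletal-muscle markers with a row, 5 had a higher mean in 0 h p.r., with sums of 3322 to 5320 in NC and 794 to 26550 in 0 h p.r. All 8 adipocyte markers had a lower mean in 0 h p.r., with sums of 3131 to 6333 in NC and 1051 to 2305 in 0 h p.r. All 6 bone and all 5 cartilage markers had higher means. The bone sums were 10.6 to 48.9 in NC and 49.1 to 163.4 in 0 h p.r., and Bglap, Sp7 and Sost were at 0 in some libraries. The cartilage sums were 4.99 to 84.5 in NC and 82.6 to 348.5 in 0 h p.r., with Col10a1 at 0 in some libraries. Bone and cartilage sums had the order of Hbegf in NC (replicates 2, 1, 3 and 4 from lowest to highest), and both were lower in runners 1 and 3 than in runners 2 and 4.

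Other cell types known to make EGF-family ligands were also read. Macrophage markers summed to 165.0 to 280.6 in NC and 154.0 to 292.8 in 0 h p.r., with higher means for 3 of 7 markers. As for Hbegf, runners 1 and 3 were lower than runners 2 and 4, but in NC the lowest sum was that of replicate 3, whereas Hbegf was lowest in replicate 2. Of the 8 keratinocyte markers 3 had a row, and their sum was 2.55 to 3.69 in NC and 4.04 to 5.93 in 0 h p.r., with Krt1 and Krt10 lower and Sfn higher (means of 1.38 and 3.38 FPKM, adjusted p = 0.0281, limma). Schwann cell markers summed to 423.4 to 590.3 in NC and 347.4 to 530.1 in 0 h p.r. The part of these shifts in the Hbegf and Errfi1 results was not tested.

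Of the other ligand and receptor genes Egf, Epgn, Nrg1, Nrg2, Nrg4 and Erbb4, only Nrg4 reached the level for testing. Nrg4, which encodes a neuregulin, had 11.9, 3.74, 3.03 and 2.63 FPKM in NC replicates 1 to 4 and 1.83, 1.05, 2.89 and 4.93 FPKM in runners 1 to 4. In NC replicate 1 it was above Hbegf. The groups overlapped, with a log2 fold change of -0.78 and an adjusted p of 0.401 (limma). Epgn, which encodes epigen, had 0, 2, 4 and 1 reads in NC replicates 1 to 4. It had 9, 16, 6 and 10 reads in 0 h p.r., all above the controls but at most 0.43 FPKM. Nrg2, chosen after its values were seen, ran the other way, with 6 to 23 reads in NC and 2 to 8 in 0 h p.r. At these depths neither was tested.

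In the order of genes in RefSeq, Btc, Areg, Ereg and Epgn stand next to each other, between Parm1 and Mthfd2l, and are followed by Cxcl2 and Cxcl1. Parm1 (log2 fold change 0.38, adjusted p = 0.302, limma) and Mthfd2l (0.09, adjusted p = 0.850) were not called. The chemokine genes beyond them were. Cxcl1 rose from 0.78 ± 0.21 to 13.0 ± 5.71 FPKM (SD, n = 4 each), with an adjusted p of 0.000886 (limma). Cxcl2 was at 0 to 0.31 FPKM in NC and 0.88 to 4.52 FPKM in 0 h p.r., with an adjusted p of 0.0178 (limma).

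Genes that act around the receptor were read as lists, against 2.70% of all tested genes called in either direction. Of 9 ligand-release genes, which include the sheddases and their iRhom cofactors, none was called and the median log2 fold change was 0.06, against -0.0014 over all tested genes. Adam17, the main sheddase of Hbegf and Tgfa, averaged 19.5 ± 2.38 FPKM in the controls and 18.3 ± 2.18 FPKM after running (SD, n = 4 each), with an adjusted p of 0.752 (limma). The largest changes were those of Adam12 (log2 fold change -0.64, adjusted p = 0.132, limma) and Rhbdf2 (0.60, adjusted p = 0.166).

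Of 21 receptor adaptor and ERK cascade genes none was called, with a median of 0.09. An adjusted p under 0.05 at any fold was reached by 5.72% of all tested genes, Stat3 and Gab1 of this list among them. Stat3, a transcription factor downstream of several receptors, had a log2 fold change of 0.86 (adjusted p = 0.0232, limma). Gab1, a docking protein named after its values were seen, was at -0.58 (adjusted p = 0.0395, limma). Pik3r1, the regulatory subunit of PI3-kinase, was at -0.98 with an adjusted p of 0.0505 (limma). Pik3r1 was called with array weights (-1.14, adjusted p = 0.00616), on omitting NC replicate 2 (-1.12, adjusted p = 0.0468) and on omitting runner 4 (-1.18, adjusted p = 0.0130). Of 13 tested genes for receptor turnover and inhibition none was called, with a median of 0.16. The largest changes there were those of Socs5, which promotes EGFR degradation (0.88, adjusted p = 0.0108, limma), and of the phosphatase gene Ptpn1 (0.84, adjusted p = 0.0368).

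Of 12 tested ERK feedback genes 1 was called higher, against 1.80% of all tested genes. This was Dusp5, which encodes a nuclear ERK phosphatase. It rose from 1.43 ± 0.55 to 5.94 ± 0.69 FPKM (SD, n = 4 each), with a log2 fold change of 1.78 and an adjusted p of 0.00315 (limma). Its call held in all 19 alternative fits. The median of the list was 0.17, and the next largest changes were those of Dusp4 (-0.48, adjusted p = 0.141) and Spred3 (0.45, adjusted p = 0.379).

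Of 14 ERK-responsive genes, which many stimuli besides EGFR also raise, 9 were called higher and none lower, against 1.80% and 0.894% of all tested genes. The median log2 fold change was 1.58. Junb rose from 41.7 ± 9.01 to 306.5 ± 18.8 FPKM (SD, n = 4 each), with a log2 fold change of 2.88 and an adjusted p of 9.70e-05 (limma). Fos rose by 2.68 on the log2 scale (adjusted p = 0.00618), Egr1 by 2.44 (adjusted p = 0.00486), Myc by 1.87 (adjusted p = 0.00181) and Ier3 by 1.86 (adjusted p = 0.000886). Of the 5 genes not called, Egr2 had the largest change, at 1.12 with an adjusted p of 0.0563 (limma) and no overlap between the groups, followed by Klf6 (0.28, adjusted p = 0.266). Over 19 alternative fits 7 to 10 of the list were called, and 7 without both NC replicate 2 and 0 h p.r. replicate 1. Egr3 and Phlda1 lost their calls in 6 of the 8 fits that left out 1 library, with adjusted p of up to 0.111 in limma.

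**Figure D5:**
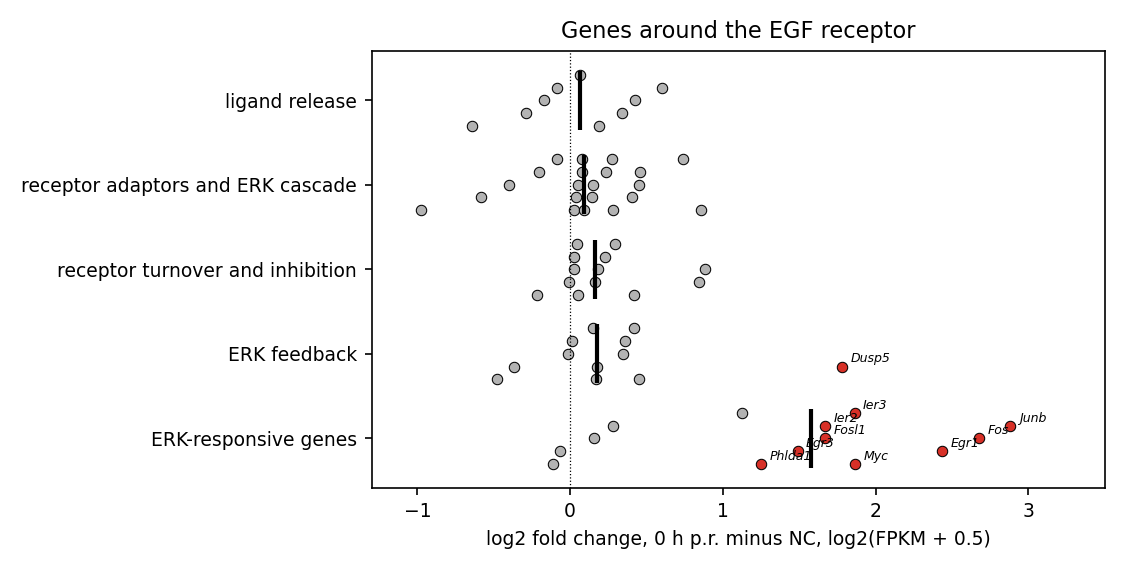
The log2 fold change, 0 h p.r. minus NC on the log2(FPKM + 0.5) scale, of each tested gene in 5 lists around the EGF receptor, with called genes in red and named and a black line at each median. The called genes are 9 ERK-responsive genes and Dusp5, and the medians of the other lists lie between 0.06 and 0.17.

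The genes most like the called members over the 8 libraries were sought by Pearson's r of log2(FPKM + 0.5), as a description. For Hbegf these included Has1 (r = 0.995), which encodes a hyaluronan synthase, and Plekhg3 (0.99). Has1 was at 4.84 FPKM in NC and 54.2 FPKM in 0 h p.r. (means, n = 4). For Errfi1 they were Thbs1 (0.99), which encodes the matricellular protein thrombospondin 1, Has1 (0.98) and Mtmr10 (0.98). Thbs1 was at 57.6 FPKM in NC and 175.1 FPKM in 0 h p.r. Over the deviations from the group means other genes came first, none of them called. These were Raph1 (0.98), Pgap1 (0.98) and Slc43a2 (0.98) for Hbegf, and Pcgf1 (0.98), the microRNA gene listed as Mir7a1 (0.97) and Lpin3 (0.96) for Errfi1.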

How the data were processed

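Polyadenylated RNA of right Achilles tendons was sequenced in 8 libraries, 4 per group, grouped and numbered by their titles. According to the methods, the authors made stranded libraries, aligned reads with HISAT2 (v2.1.0) to Rnor_6.0 and counted genes with featureCounts (v1.6.3). From counts and gene lengths the authors derived the deposited FPKM, scaled between libraries, with DESeq2 (v1.30.1) named by the authors for normalization. Columns of log2 fold changes and p-values hold the authors' own comparison and were not used.

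A gene was tested where 4 or more of the 8 libraries reached 0.5 FPKM, on log2(FPKM + 0.5), which understates changes of low genes, with limma 3.58.1 in R 4.3.3 (trend, two-sided, no covariate) and Benjamini-Hochberg adjustment over 13863 genes. No source used here states that each library is 1 rat, so p-values measure the spread between these samples. Whole reads were recovered from the steps between FPKM values, for 100% of 15590 genes within 0.01 reads. They gave a depth of 11350560 to 17897056 reads, and intervals from them cover counting error only. The scripts were tested on simulated data. There the limma fit called 98 of 100 genes changed 4-fold but only 27 of 100 changed 2-fold, with 8 false calls. A gene that did not pass may therefore still have changed by about 2-fold. Python 3.11.15 with numpy 2.4.6 was used for the rest.

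The members and lists were chosen with earlier results of these data known, so the quotient of ligand and receptor sums, a score over the members, is given without its permutation p. Named were all members, the called genes of each list, at most 5, with its 2 largest other changes, and the 3 genes most like each called member. Some genes that this rule or these lists take in are not reported here. Adam17 was named for its known role. Alternatives were pseudocounts of 0.1 and 1, the filter dropped or set to a mean of 2 FPKM, quantile scaling, equal FPKM totals with and without mitochondrial genes, a replicate block, array weights, each library left out, the adjusted p alone, and voom on the recovered reads.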

Additional observations from a re-analysis of the deposited data

Results flagged for a closer look

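Tgfa in NC replicate 2, at 2.24 FPKM, lay far from the other 3 NC libraries: its gap to the nearest of them was 0.843 of the range of the group, above the 95% critical value of Dixon's test for 4 samples. Chance gives such a value in about 1 of 20 groups, and 20 groups were examined.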

How the results depend on the processing

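The 2 called members fell to 1, Hbegf alone, with quantile normalization, with equal FPKM totals, with equal totals after leaving out the mitochondrial genes and with the replicate block, and ranged from 1 to 2 when single libraries were left out. Over all genes, 374 calls became 171 with equal FPKM totals, 243 with equal totals without mitochondrial genes and 212 with the replicate block. They became 505 with array weights, 209 without both NC replicate 2 and 0 h p.r. replicate 1, and 793 by the adjusted p alone. When single libraries were left out they ranged from 195 to 516. The share of calls that were higher was 66.8% in the main fit and 77.8% with equal FPKM totals. It was 83.5% with the replicate block and 57.0% with array weights. The cause of these moves was not tested. The log2 fold change of Btc turned negative with equal totals without mitochondrial genes (-0.025) and without NC replicate 2 (-0.06), NC replicate 3 (-0.0084), 0 h p.r. replicate 2 (-0.084) or 0 h p.r. replicate 4 (-0.033), and ranged from -0.084 to 0.13 when single libraries were left out. That of Egfr turned positive without NC replicate 4 (0.07), 0 h p.r. replicate 1 (0.10) or 0 h p.r. replicate 3 (0.00048), and ranged from -0.29 to 0.10 over such fits. For the log2 quotient of ligand and receptor sums, the difference of the group means, 0 h p.r. minus NC, stayed between 2.34 and 2.68 in all its alternatives. Deviations of libraries with the same replicate number correlated at -0.14 to 0.07, and 0 of 8 libraries correlated best with its own number. The titles give nothing shared beyond that number, and such correlations cannot show whether these libraries were handled together. Depth limits Btc, with 9 to 36 reads a library, and Erbb2, with 26 to 90.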
